A study of Homo sapiens with 40 samples.

Results

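Chromatin immunoprecipitation with an antibody to the retinoblastoma protein Rb was sequenced (ChIP-seq) in human EndoC-βH3 cells, and the deposited list of regions with more Rb signal in senescent than in non-senescent cells held 2435 regions. Of these, 991 regions (40.7%, 95% Wilson interval 38.8 to 42.7) lay in dense clusters and are described here. They were chosen by position in the list alone: the centre of the region fell in a fixed 1 Mb bin that held at least 10 listed regions, and the region lay more than 2 kb from every protein-coding start site. The clusters filled 46 bins on 16 chromosomes. The other listed regions were 1162 scattered regions, in bins with fewer regions, and 282 promoter regions, which lay within 2 kb of a protein-coding start site. Membership of the list was itself a readout, so the density of the bins is a description and was not tested.

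EndoC-βH3 is an established beta cell line made from human fetal pancreas, immortalised with hTERT and the SV40 large T antigen, both of which can be cut out by a tamoxifen-inducible Cre (CreER). All samples carried the label WT for genotype. Senescent cells had been given 4-hydroxytamoxifen, which removes both transgenes, and were collected after 3 weeks, and non-senescent cells kept both transgenes. The list came from 2 senescent Rb libraries, called against 2 non-senescent Rb libraries as control. Each Rb library also had an input library, which was not the control for the list. The list was compared with deposited peaks of H3K27ac (3 libraries per state), CTCF (3 per state) and lists of enhancers made from H3K27ac and H3K4me1 (2 H3K4me1 libraries per state), out of 40 libraries with inputs. The model is a single cell line, and the 2 states differ in the presence of large T antigen and hTERT as well as in senescence, so these cannot be told apart. The cell type label was checked on the H3K27ac peaks: 15 of 15 beta cell genes had a peak at the promoter, among them PDX1 and NKX2-2, as did 2 of 4 genes of other islet cells (SST, GHRL; none at GCG or PPY) and 2 of 4 exocrine genes (CPA1, KRT19). This was a check of presence and not of level. By the authors' mean of normalised counts PDX1 had 10149, but MAFA, the lowest of the 15, had 43.6, against a median of 118.7 over all H3K27ac peaks. The exocrine genes CPA1 and KRT19 had 1498 and 912.7.

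Rb is a repressor of E2F target genes, which drive entry into the cell cycle, and large T antigen binds Rb and blocks it. Rb is usually studied at promoters. Centromeres, by contrast, hold few genes and are built of alpha satellite, a tandem repeat of a short unit, the monomer. Monomers are arranged in higher-order blocks that recur along an array with few differences, and in one large family of arrays the block is a pair of monomers. Some monomers carry the CENP-B box, a short site bound by the centromere protein CENP-B. In the hg38 assembly the centromere arrays are modelled sequence, so a position within an array does not stand for a single place in the genome of a cell.

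The sequences below are from the widest member of each of 6 of the 8 bins with the most members, and are shown because they let the repeat be read directly. Each line gives 1 monomer length of hg38 on the plus strand, starting at a CENP-B box, whose core is in capitals. The core searched was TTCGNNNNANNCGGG, on both strands.
Chromosome 19, chr19:25067262-25067432: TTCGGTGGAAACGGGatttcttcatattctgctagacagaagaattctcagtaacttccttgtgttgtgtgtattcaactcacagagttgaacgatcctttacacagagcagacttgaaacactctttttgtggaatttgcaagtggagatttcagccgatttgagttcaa
Chromosome 5, chr5:47572125-47572295: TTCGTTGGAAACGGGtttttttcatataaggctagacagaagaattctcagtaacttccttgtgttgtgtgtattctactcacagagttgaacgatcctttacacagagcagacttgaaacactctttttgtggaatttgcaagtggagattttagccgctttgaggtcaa
Chromosome 1, chr1:122735590-122735760: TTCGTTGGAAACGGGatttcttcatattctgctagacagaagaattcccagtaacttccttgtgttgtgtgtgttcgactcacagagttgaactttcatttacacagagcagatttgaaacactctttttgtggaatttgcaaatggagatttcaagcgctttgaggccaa
Chromosome 2, chr2:92404456-92404626: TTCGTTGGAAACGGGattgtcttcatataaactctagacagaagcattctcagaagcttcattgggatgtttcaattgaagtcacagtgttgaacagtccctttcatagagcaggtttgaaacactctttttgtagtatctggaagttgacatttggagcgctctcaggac
Chromosome 2, chr2:93457355-93457525: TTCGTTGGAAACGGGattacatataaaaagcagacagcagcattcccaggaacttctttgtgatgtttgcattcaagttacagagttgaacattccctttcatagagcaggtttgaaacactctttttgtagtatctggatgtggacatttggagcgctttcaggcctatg
Chromosome 9, chr9:44001565-44001735: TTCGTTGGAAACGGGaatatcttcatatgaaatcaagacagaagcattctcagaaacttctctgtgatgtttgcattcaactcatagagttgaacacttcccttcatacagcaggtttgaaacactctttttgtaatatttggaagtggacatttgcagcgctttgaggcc

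The stretches from chromosomes 19 and 5 were the same at 161 positions (94.2%), and those from chromosomes 19 and 1 at 157 positions (91.8%). The stretch at chr2:92404456-92404626 matched that from chromosome 9 at 145 positions (84.8%), and that from chromosome 19 at 66 positions (38.6%). The widest members of the remaining 2 of the 8 bins, on chromosomes 5 and 19, matched the printed chromosome 19 stretch at 96.5% and 87.1% of positions. These counts were made position by position without gaps, so an insertion or deletion lowers them. By this count the stretches of chromosomes 1, 5 and 19 were alike, those of chromosome 9 and of the first chromosome 2 bin were alike, and the stretch at chr2:93457355-93457525 was at most 36.3% the same as any other. That low value does not set this stretch apart. Both chromosome 2 stretches hold the same long run of letters, ending in gtagtatctgga, but at different distances from the box, which a count without gaps misses.

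The repeat held most of the members. A 1 kb window round the centre of each region was compared with itself at every shift from 2 to 399 bp, and the region was taken as lying in alpha satellite period when the best shift was within 5 bp of 1 monomer, or within 10 bp of 2 monomers, with at least 50% of bases the same. By this measure 810 of 991 members (81.7%, interval 79.2 to 84) lay in alpha satellite period, 573 at the length of 2 monomers and 237 at the length of 1. Another 63 members (6.36%) had a different period, and 118 (11.9%) had none. Among scattered Rb regions the share in alpha satellite period was 146 of 1162 (12.6%, 10.8 to 14.6), and among promoter regions 0 of 282 (0%, 0 to 1.34). Across 293732 windows of 1 kb taken at 10 kb steps along the genome it was 1.91%. No test was made between these shares, because neighbouring regions share their sequence and are not replicates, and the intervals cover counting error only.

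**Figure D1:**
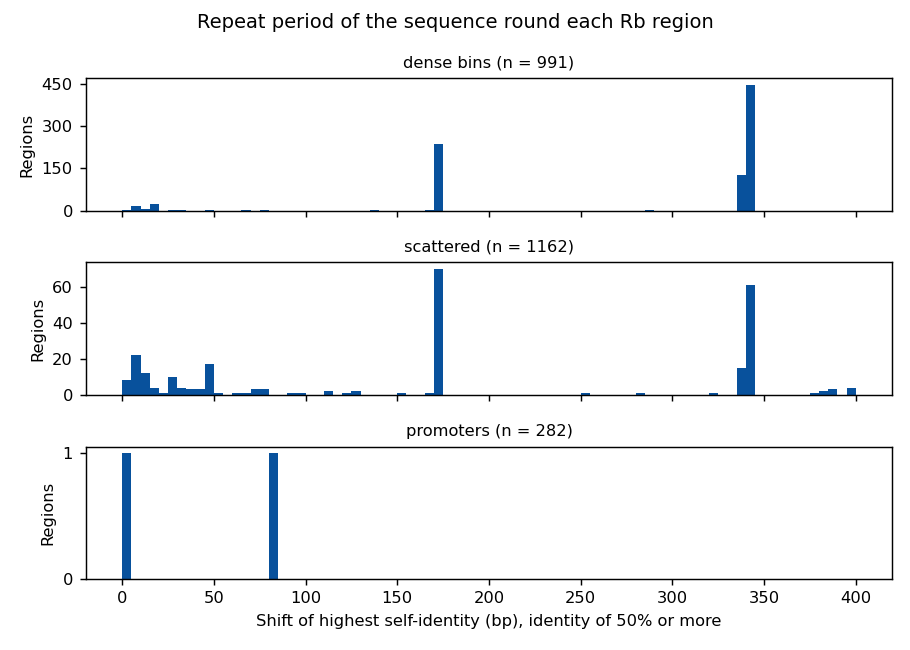
Number of Rb regions (y axis, a separate linear scale in each panel) at each best shift in bp (x axis, 5 bp steps) for regions in dense bins, scattered regions and promoter regions, with only regions of at least 50% self-identity drawn. Most members stand in narrow columns at 1 and 2 monomer lengths, as do 146 scattered regions, and of the 282 promoter regions 2 have any period.

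The dense bins were themselves rich in the repeat. Of their 4259 windows, 64.9% (63.4 to 66.3) lay in alpha satellite period, against 81.7% of the members within them. Windows count each bin by its sequence and members by their number, so these shares are weighted differently. Chromosome 19 from 25 to 26 Mb had 63 members and 95% of its windows in the repeat. Chromosome 1 from 194 to 195 Mb had 10 members and 0% of its windows. The difference between the shares is no measure of a preference within bins. The 46 bins made up 42.59 Mb of 2937.32 Mb of sequence outside assembly gaps (1.45%), and held 2763 of the 5621 alpha satellite period windows of the genome (49.2%). Of all 956 listed Rb regions in alpha satellite period, 810 (84.7%) were in these bins. The bins were chosen for their number of listed regions, so a high share of listed regions in them follows from the rule.

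The exact period differed between chromosomes. A shift of 340 bp was the best for 376 of the 810 repeat members, a shift of exactly 1 monomer for 234, 338 bp for 86, 342 bp for 36, 341 bp for 31 and 337 bp for 25. On chromosomes 1, 5 and 19 nearly all repeat members had the length of 2 monomers, with 85 of 85, 104 of 105 and 120 of 123. Chromosome 18 had 79 of 89, chromosome 7 47 of 47, chromosome 12 41 of 41 and chromosome 10 23 of 23. The length of 1 monomer led on chromosome 2, with 84 of 113, on chromosome 9, with 72 of 92, and on chromosomes 3, 15, 17 and 20. On chromosome 18 the leading shift was 337 or 338 bp in 4 of its 5 bins. The self-identity at the best shift had a median of 0.657 over the repeat members. With longer shifts, from 400 bp to just under 6 kb, the median best identity was 0.907, and 433 of 810 repeat members reached at least 90%.

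**Figure D2:**
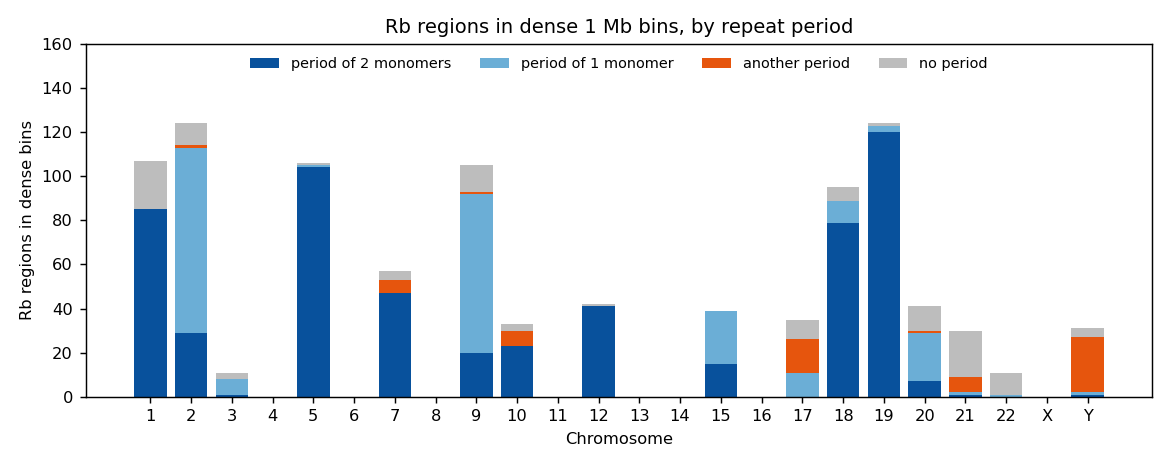
Number of Rb regions in dense bins on each chromosome (y axis), stacked by repeat period. Chromosomes 2 and 19 hold 124 members each, the period of 2 monomers fills most of the bars of chromosomes 1, 5, 18 and 19, and chromosomes 4, 6, 8, 11, 13, 14, 16 and X have no dense bin.

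CENP-B boxes lay in or near most members. The core of the box was found within 1 kb windows of 808 of 991 members (81.5%, 79 to 83.8), of 100 of 1162 scattered regions (8.61%, 7.13 to 10.4) and of 2 of 282 promoter regions (0.709%, 0.195 to 2.55). Within alpha satellite period, 774 of 810 members had a box (95.6%, 93.9 to 96.8), against 87.7% (86.5 to 88.9) of repeat windows of the same bins and 80.7% (79.6 to 81.7) of repeat windows genome-wide. Bins differed in boxes, with 63 of 63 members on chromosome 19 from 25 to 26 Mb and 1 of 19 on chromosome 20 from 29 to 30 Mb. Members and windows are spread unequally over the bins, so a preference for boxes within an array was not tested. A box was also found beside 34 members with no period by the 50% measure, and beside 0 members with another period. The box did not sit at the centre of the regions more closely than in any window of the same sequence: for members at 2 monomer lengths the nearest box was at a median of 94.5 bp from the centre (566 members with a box), and for such windows of the dense bins at 96.5 bp (1726 windows). A match of letters is a description and not a bound site.

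Motifs of E2F, through which Rb is recruited to promoters, were rare in members and in the genome alike. The letters searched were TTTCCCGC, TTTGGCGC, TTTCGCGC and TTTGCCGC, on both strands of a 300 bp window at the centre. Words on the opposite strands can overlap, so a window counted once. They occurred in 2 of 991 members (0.202%, 0.0554 to 0.733), in 7 of 1162 scattered regions (0.602%, 0.292 to 1.24) and in 21 of 282 promoter regions (7.45%, 4.92 to 11.1). In windows of the genome of the same length the share was 0.362%, which lies within the interval of the members.

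Regions in dense bins were wider than the rest of the list and had the GC content of the bins they lay in. Their median width was 297 bp (quartiles 212 to 455, range 4 to 1724), against 225 bp (126.2 to 291.8) for scattered and 257 bp (221.2 to 327) for promoter regions. They held 337773 of 687454 listed bases (49.1%). The median GC was 38.7% (37.4 to 39.6), against 35% for scattered and 68.8% for promoter regions, and 38.9% in windows of the same bins. Within a bin the next member was at a median of 17863 bp (quartiles 6645 to 43076).

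Most members were made of sequence with many copies in the genome. Every run of 31 bases (31-mer) of a region was counted on both strands of hg38, for the 953 members of at least 31 bp. A typical 31-mer of a member occurred 1084 times (median over members of the median count; quartiles 196.5 to 2106), against 1 time for scattered and 1 for promoter regions. In 863 of 953 members (90.6%, 88.5 to 92.3) most 31-mers occurred more than once, against 34.7% (31.9 to 37.6) of 1092 scattered and 1.79% (0.768 to 4.13) of 279 promoter regions. In 663 members (69.6%) every 31-mer occurred more than once, and in 20 (2.1%) every 31-mer was single, against 44.8% of scattered and 89.2% of promoter regions. For 642 members (67.4%) most 31-mers also occurred on another chromosome. How the aligner placed reads with several equal positions was not given in the sources used here, and its part in the list was not tested.

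**Figure D3:**
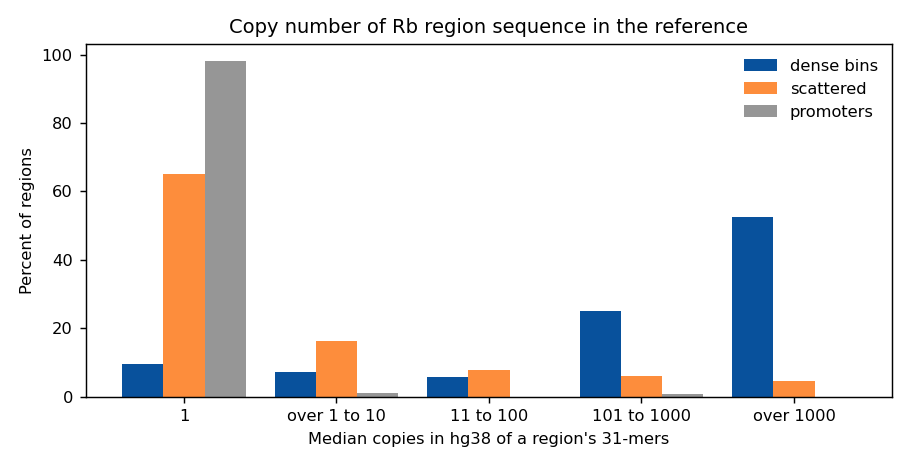
Percent of Rb regions (y axis) by the median number of copies in hg38 of the 31-mers of a region (x axis, classes of copy number) for 953 members, 1092 scattered and 279 promoter regions. Members stand mainly in the highest class, with 52.5% at over 1000 copies, while 98.2% of promoter regions are at 1 copy.

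The sharing of sequence tied certain chromosomes together, as the printed monomers did. The 31-mers of the 117 repeat members of chromosome 19 were found at a mean of 98.1% on chromosome 5 and 97.7% on chromosome 1. Those of the 83 members of chromosome 1 were found at 100% on both chromosomes 5 and 19, to the 3 digits kept. Those of the 103 members of chromosome 5 were at 97.5% on chromosome 1 and 97.4% on chromosome 19. Outside this trio their highest share was on chromosome 16, at 45.8 to 48.2%, although chromosome 16 had no dense bin. For 106 members on chromosome 2 the highest shares were 63.9% on chromosome 20, 38% on chromosome 9 and 32.9% on chromosome 18, and for 89 members on chromosome 9 the highest was 55.1% on chromosome 4. Among the 13 chromosomes with at least 5 such members, those of chromosomes 3, 12 and 17 shared least, with at most 19.9%, 21.9% and 19.2% on any other chromosome. These are means over members with a 31-mer.

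**Figure D4:**
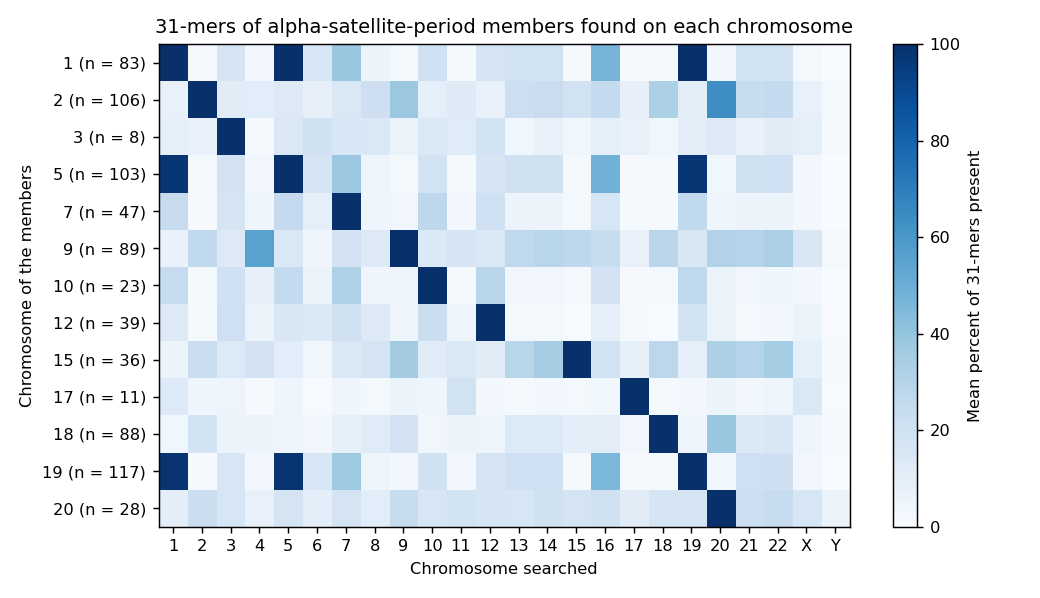
Mean percent of the 31-mers of alpha satellite period members (rows, by the chromosome of the members, with their number) that are present on each chromosome of hg38 (columns). Chromosomes 1, 5 and 19 form a block near 100%, and most other cells off the diagonal are pale.

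The number of regions per Mb of alpha satellite differed between chromosomes. Counting every listed Rb region in alpha satellite period per Mb of such sequence in hg38, chromosome 2 had 58.9 per Mb (113 regions in 1.92 Mb), chromosome 19 had 41.3 (123 in 2.98 Mb), chromosome 9 had 36 (94 in 2.61 Mb), chromosome 1 had 33.7 and chromosome 5 had 32.6. Chromosome 18, with the most alpha satellite period sequence (4.86 Mb), had 18.9. At the other end, chromosome 11 had 1.36 (3 regions in 2.21 Mb), chromosome 6 had 0.82, chromosome 8 had 0.538 (1 in 1.86 Mb) and the X chromosome 0 in 3.05 Mb. For X, 3 regions would have been 0.984 per Mb. Chromosomes 1, 5 and 19, whose members share nearly all 31-mers, were within 32.6 to 41.3 per Mb. The number of copies of each chromosome and array in these cells was not analysed here, and neither was the depth of each library, which the list does not give.

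**Figure D5:**
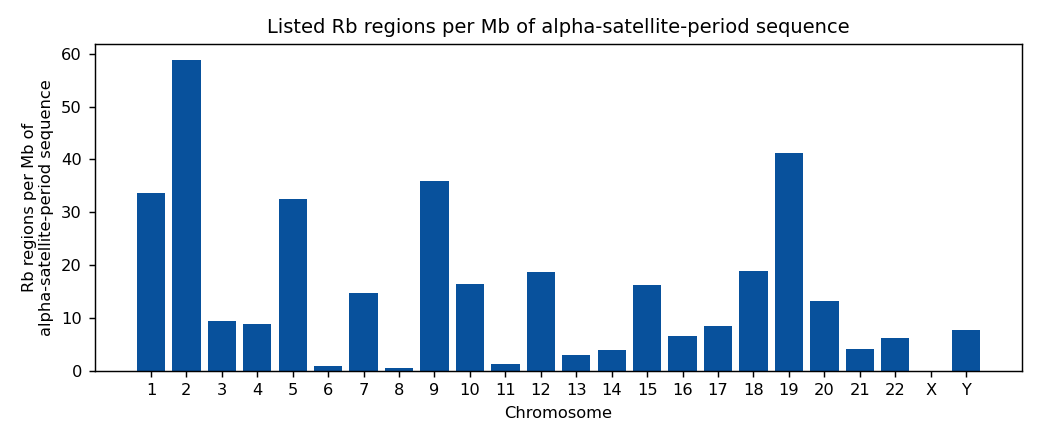
Listed Rb regions in alpha satellite period per Mb of alpha satellite period sequence of hg38 (y axis), by chromosome (x axis). Chromosome 2 is highest at 58.9 per Mb, and chromosomes 6, 8, 11 and X lie at or below 1.36.

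Bins fell into 4 kinds by what most of their members were. In 35 bins with 856 members most regions were in alpha satellite period, in 5 bins with 63 members most had another period, in 5 bins with 58 members most had no period, and 1 bin with 14 members was mixed. The bin with the most members, on chromosome 19 from 25 to 26 Mb, had 63, all in alpha satellite period with a box near, 57 of them at 340 bp. The next was chromosome 2 from 93 to 94 Mb, with 59 members, of which 53 were in the repeat, followed by chromosome 5 from 47 to 48 Mb with 54 of 54, chromosome 2 from 92 to 93 Mb with 50 of 54, and chromosome 9 from 44 to 45 Mb with 46 of 48. The nearest protein-coding genes of 4 of these 5 bins were ZNF254, a zinc finger gene, at 930717 bp or more, AQP7B, of the aquaporin family (the nearest of both chromosome 2 bins), at 680790 bp or more, and SPATA31A6 at 1817885 bp or more. At the edge of the rule, the 6 bins of 10 listed regions held 59 members, of which 20 were in the repeat, and the 10 bins of 9 listed regions held 90 regions outside promoters, of which 33 were.

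Most members with other periods lay in short tandem repeats. The best shift was 15 bp in 25 of these 63 members and 5 bp in 17, and in the rest it ranged from 4 to 285 bp. The Y chromosome had 25 of them and chromosome 17 had 15. Stretches of 60 bases from the widest member of a bin on each, chosen after their values were seen, show the repeat, with successive units of 15 and of 5 bases in alternating capitals and lower case, on the plus strand of hg38.
Chromosome 17, chr17:21899862-21899921: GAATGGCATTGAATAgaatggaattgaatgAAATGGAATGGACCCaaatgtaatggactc
Chromosome Y, chrY:10844237-10844296: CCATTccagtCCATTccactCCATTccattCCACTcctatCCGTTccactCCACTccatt
The first member had 72.6% self-identity at 15 bp and the second 70.3% at 10 bp. Unlike the alpha satellite members, those of other periods had a median of 1 copy per 31-mer, with a median of 33% of 31-mers repeated, so most of their 31-mers were single although the unit recurs with changes.

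A pair of neighbouring bins away from any centromere array also passed the rule. On chromosome 1 from 194 to 196 Mb there were 10 and 11 members, 21 in all, none in a repeat period, and 19 of the 20 members with every 31-mer single were there. Their GC was low, at a median of 30.6% (range 25 to 40), and their width had a median of 218 bp (40 to 402). They lay at least 27564472 bp from an assembly gap and 613896 to 1695914 bp from a protein-coding start site, with B3GALT2 and KCNT2 as the nearest genes. These bins stood between stretches with few listed regions: from 191 to 194 Mb the bins held 0, 1 and 0 regions and from 196 to 198 Mb 0 and 0, while the bins from 189 to 191 Mb held 9 and 8. The first 120 bases of the widest member of the second bin of the pair come from a window with no box and no period. This member was again chosen after its values were seen, and is printed for contrast with the monomers.
Chromosome 1, chr1:195020989-195021108: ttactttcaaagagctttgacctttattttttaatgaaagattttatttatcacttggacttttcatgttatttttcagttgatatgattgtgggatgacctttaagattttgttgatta
In the remaining bins of this kind most members had no period. These bins were chromosome 21 from 9 to 10 Mb (16 of 16 members), chromosome 22 from 12 to 13 Mb (10 of 11) and chromosome 9 from 63 to 64 Mb (7 of 10). Their members had a median GC of 31.7%, 30.9% and 31.1%, and, unlike the chromosome 1 pair, a median of 60.9%, 98% and 96.7% of their 31-mers occurred more than once.

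Genes were scarce in and round the members. None of the 991 overlapped a protein-coding gene (0%, 0 to 0.386), against 268 of 1162 scattered regions (23.1%, 20.7 to 25.6). Overlap with any annotated gene was found for 13 members (1.31%), all lncRNAs or pseudogenes, among them FRG1DP, TEKT4P2 and BAGE2, and 4 members overlapped an exon. The nearest protein-coding start site was at a median of 1703714 bp (range 15605 to 3557896), against 218865 bp for scattered regions. The rule had set only the 2 kb minimum. Of 20033 protein-coding genes 15 had their start in a dense bin, and 40 of 46 bins had none. Of these 15, 7 were in 1 bin of chromosome 17 (USP22, DHRS7B, TMEM11, NATD1, MAP2K3, KCNJ12 and KCNJ18). The 92 cell cycle genes, the 195 E2F targets and the 72 beta cell maturity genes of the lists the study used each had 0 starts in these bins. Among gene families taken by symbol, 3 of 515 ZNF genes (ZNF254, ZNF33A and ZNF37A) had a start there, and 0 of 416 OR, 0 of 13 POTE, 0 of 57 ANKRD, 0 of 14 NBPF and 0 of 3 DUX genes. At 15 starts among 20033 genes, most lists of these sizes would hold none, so the zeros say little about any list.

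Marks of active chromatin and CTCF seldom coincided with members. A listed H3K27ac peak overlapped 1 of 991 members (0.101%, 0.0178 to 0.569), 93 of 1162 scattered regions (8%, 6.58 to 9.71) and 270 of 282 promoter regions (95.7%, 92.7 to 97.5). A CTCF peak overlapped 11 members (1.11%, 0.621 to 1.98), 4.48% (3.43 to 5.82) of scattered and 29.8% (24.8 to 35.4) of promoter regions. No member overlapped an enhancer of either state, or lay within 10 kb of one (0%, 0 to 0.386 each), whereas 52 and 47 scattered regions overlapped a non-senescent and a senescent enhancer. Within 10 kb there was an H3K27ac peak for 6 members and a CTCF peak for 75 (7.57%). In all, 65 of 51489 H3K27ac peaks (0.126%) and 226 of 51457 CTCF peaks (0.439%) were in the dense bins, against 1.45% of sequence outside gaps, and 30 of 46 bins had no H3K27ac peak. Those in the 35 alpha satellite bins were 17 and 99. Peaks in repeats depend on how reads of several positions were placed, which was not given for these marks either.

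The 11 members under a peak were few enough to read singly, and each peak is given with the authors' mean of normalised counts over all libraries of its mark. The means of H3K27ac and of CTCF are not on one scale, so CTCF peaks are ranked among themselves. The member at chr10:38403322-38403334, only 13 bp wide and in an exon of a lncRNA, lay under an H3K27ac peak with a mean of 1297 and at the end of a CTCF peak with 36.9. The highest CTCF peaks over members were at chrY:11311278-11311686 (371.9), chr21:9162075-9162301 (271.7) and chr21:9088754-9089208 (261.9), the last of these in an intron of TEKT4P2. The first of this trio counted as alpha satellite period by the shift rule, at 343 bp, with a median of 2 copies per 31-mer and a GC of 46%. Its bin had no member with a CENP-B box and no sampled window in alpha satellite period, so the label rests on the shift alone. The others of the trio had no period. The 5 CTCF peaks over other alpha satellite period members were lower, at 1.84 to 14.3, with the highest over chr5:48765967-48766016, where the median of all CTCF peaks was 58.6. The remaining 2 members under a CTCF peak were at 12.9 and 4.99. The highest CTCF peaks within the bins, on chromosome 5 at chr5:49657772-49660546 (3172) and chr5:49601614-49602865 (2123), overlapped no member.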

How the data were processed

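ChIP-seq libraries of Rb, H3K27ac, CTCF and H3K4me1 with inputs had been trimmed with Trim Galore, aligned to hg38 with Bowtie2 by the authors. Duplicates had been removed with samtools for Rb and with Picard for H3K27ac and H3K4me1, and for CTCF this is not given in the sources used here. Their Rb list was made with MACS2 with senescent libraries as treatment and non-senescent libraries as control, at an unadjusted p of 0.01. Input libraries of Rb were used by the authors for coverage tracks. How replicates were combined and how reads with several positions were placed is not given in the sources used here. The list gives positions only, so no value per replicate, depth or test was to be had. The H3K27ac and CTCF tables deposited by the authors give positions and a mean of normalised counts over all libraries, a signal that was used as a level. Their columns of fold changes, p-values and adjusted p-values between states were not used. Enhancer lists give positions.

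Regions were classified with GENCODE 44 start sites. Genome sequence (hg38, the build of the files) was scanned with Python 3.11.15, numpy 2.4.6, pandas 2.3.3, scipy 1.17.1, pysam 0.24.0 and numba 0.67.0, and the period scan was tested on simulated sequence. Overlap meant at least 1 bp. Assembly gaps were runs of at least 1 kb of unknown bases. The members, bins and lists were chosen with earlier results of these data known. Genes named by rule were protein-coding genes overlapping a member, of which there were 0, and the nearest to the 5 bins with the most members, of which 1 is not reported here. Regions named were the widest members of the 8 bins with the most members and the 5 members with the highest authors' mean among overlapping peaks. Others are named as further examples after their values were seen. The alternatives tried were other bin minimums and starts, promoter windows, identity limits, windows, 25-mers, overlap rules and CTCF minimums.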

Additional observations from a re-analysis of the deposited data

How the results depend on the processing

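Of the alternatives tried for the number of members and the medians of width and GC, all stayed within 1.5 times the count or within the spread between bins, with 759 members at 15 or more regions per bin and 1127 at 8 or more. The share in alpha satellite period, 81.7%, was 60.1% when 60% self-identity was asked for, 91.4% in bins of at least 15 regions and 75.9% in bins of at least 8 regions, the last chosen after seeing the data. The share with mostly repeated sequence was 94.3% with 25-mers, against 90.6%. The share with any listed peak or enhancer was 7.87% within 10 kb, against 1.11% by overlap. The share with a CTCF peak was 0.303% when the authors' mean had to be at least 50. No paired analysis was possible because the Rb list gives positions without values per library. For the same reason no replicate could be left out, and the depth behind a region is unknown.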
